A study of Mus musculus with 19 samples.

Results

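Expression of 10 genes of inflammatory cytokines and prostaglandin synthesis was followed in dorsal root ganglia, where the cell bodies of sensory neurons lie. The genes were chosen by name: Il1a, Il1b, Il1rn, Il18, Tnf, Il6, Il10, Il12b, Ptgs2 and Ptges. All 10 were found among the 36682 named genes of the table, and all 10 passed the filter on low counts, as did 22778 genes in all. The tissue came from male mice homozygous for the MaFIA transgene (macrophage Fas-induced apoptosis), in which the drug AP20187 triggers cell death in cells that express it. The transgene is driven by the promoter of Csf1r, so that other myeloid cells as well as macrophages can carry it, and every group, vehicle controls included, carried it. Mice had destabilization of the medial meniscus (DMM), a knee operation that leads to osteoarthritis, or were naive and of the same age, and were injected intraperitoneally with AP20187 or vehicle daily for 5 days. In DMM mice the treatment was given 8 weeks after surgery. The groups were DMM with AP20187 (5 libraries, numbered 58 to 62), DMM with vehicle (5, numbered 32 to 34, 63 and 64), naive with AP20187 (4, numbered 1, 3, 4 and 5) and naive with vehicle (5, numbered 1 to 5). The ganglia L3 to L5 were pooled for RNA, in DMM mice those of the operated side. The labels number the samples without saying more of the animals behind them, so p-values measure the spread between these samples.

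Interleukin-1 alpha and beta bind one receptor and start inflammatory signalling through NF-kappaB, while the product of Il1rn occupies the same receptor without signalling. Tumour necrosis factor and interleukin-6 are released by activated myeloid cells and can sensitize pain-sensing neurons, interleukin-12 and interleukin-18 promote interferon responses, and interleukin-10 restrains cytokine production. Ptgs2 (cyclooxygenase 2) is an inducible enzyme that turns arachidonic acid into prostaglandin H2, from which Ptges makes prostaglandin E2, a mediator of inflammatory pain.

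Libraries held 60984830 to 74691396 counts. Values per library are given in CPM (counts scaled to library size after TMM normalization), and a library with 3 counts or fewer was taken as at the floor of detection. Levels of Csf1r, the gene whose promoter drives the transgene, were 69.1 ± 35.9 CPM (SD, n = 5) in DMM with AP20187 and 70.0 ± 48.3 (n = 5) with vehicle. In naive mice they were 69.4 ± 12.9 CPM (n = 4) with AP20187 and 50.9 ± 29.4 (n = 5) with vehicle, and neither difference passed the test (edgeR adjusted p = 0.982 and 0.554). The ganglion was recognizable in every library, with none of 13 sensory neuron markers at 0. In bulk RNA, fewer cells of a type and less RNA per cell cannot be told apart.

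Tnf and Ptgs2 passed the test in both comparisons of AP20187 with vehicle. The interleukin-1 agonists Il1a and Il1b had fold changes of opposite signs in DMM, neither of which passed (edgeR adjusted p = 0.203 and 0.0889). The sequences just before the transcription starts of these genes are shown. They are from RefSeq on build GRCm38.p6, 250 bases before the start, read 5′ to 3′ on the gene's strand; 9 of the 10 genes matched an entry. The windows are chr17:35202008-35202257 on the minus strand for Tnf, chr1:150099781-150100030 on the plus strand for Ptgs2, chr2:129309973-129310222 on the minus strand for Il1a and chr2:129371140-129371389 on the minus strand for Il1b. Capitals mark matches to the motifs searched.
Tnf: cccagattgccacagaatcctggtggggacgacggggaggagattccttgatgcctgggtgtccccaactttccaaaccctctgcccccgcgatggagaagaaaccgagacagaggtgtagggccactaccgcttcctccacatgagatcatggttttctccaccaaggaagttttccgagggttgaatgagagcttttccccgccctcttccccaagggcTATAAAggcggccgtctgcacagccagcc
Ptgs2: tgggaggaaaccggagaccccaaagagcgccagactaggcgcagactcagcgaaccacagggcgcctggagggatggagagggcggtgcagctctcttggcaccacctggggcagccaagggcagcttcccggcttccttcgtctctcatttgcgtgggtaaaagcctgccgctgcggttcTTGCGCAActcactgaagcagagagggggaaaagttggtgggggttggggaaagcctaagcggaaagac
Il1a: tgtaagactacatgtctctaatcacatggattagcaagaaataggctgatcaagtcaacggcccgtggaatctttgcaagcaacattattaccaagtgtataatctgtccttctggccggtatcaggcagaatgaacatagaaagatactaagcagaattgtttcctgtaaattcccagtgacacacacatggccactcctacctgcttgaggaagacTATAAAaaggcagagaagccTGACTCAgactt
Il1b: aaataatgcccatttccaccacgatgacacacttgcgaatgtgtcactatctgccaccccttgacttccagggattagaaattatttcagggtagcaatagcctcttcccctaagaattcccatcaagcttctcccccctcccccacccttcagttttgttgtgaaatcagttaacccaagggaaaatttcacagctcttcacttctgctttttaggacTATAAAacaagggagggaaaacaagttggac

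Both strands were searched for TATAAA (the core of a TATA box), TGANTCA (an AP-1-type site), TGACGTCA (a CRE), TTGCNNAA (a C/EBP-type site) and the kappaB motif. TATAAA lay 29 to 24 bases before the start in Tnf, 32 to 27 in Il1a and 31 to 26 in Il1b. The Ptgs2 window held the palindrome TTGCGCAA 69 to 62 bases before the start. The Il1a window also held TGACTCA 12 to 6 bases before the start. Of 32851 windows of the same length, 12.4% held TATAAA, 9.56% TTGCNNAA, 6.75% TGANTCA, 7.25% the kappaB motif and 1.55% TGACGTCA. Among the other genes, the Il6 window held the kappaB motif, TGANTCA and TTGCNNAA, 1 window of Il1rn held TGANTCA, and the Il18 window held TATAAA on the other strand.

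With AP20187, Tnf and Ptgs2 rose in both DMM and naive ganglia, and Il1a, Il1rn and Il10 rose in naive ganglia. Il1b, Il6, Il12b, Il18 and Ptges passed the test in neither. In DMM, 2 of the 10 genes passed at an adjusted p under 0.05 (edgeR quasi-likelihood test, Benjamini-Hochberg over all genes), both higher; over all genes tested, 23.8% passed and 11.3% were higher. The count in DMM was therefore near the background. In naive ganglia 5 of 10 passed, all higher, where 11.2% of all genes passed and 8.61% were higher. The naive count was 3 without AP20187 library 3 or vehicle library 1 or 2, fits that called 4.24% to 6.03% of all genes. The median log2 fold change of the 10 genes was 1.08 in DMM, with 8 above 0, and 2.51 in naive ganglia, with 10 above 0; over all genes the medians were -0.10 and -0.07. In DMM the AP20187 libraries lay wholly above the vehicle libraries for 2 genes, where the groups of 12.9% of all genes did not overlap in either direction. In naive ganglia this held for 5 genes, Il1a, Il1rn, Tnf, Il6 and Ptgs2, where the groups of 15.5% of all genes did not overlap. Skeletal muscle markers moved with AP20187 in naive ganglia too: 8 genes summed to 1726 to 2679 CPM with AP20187 and 14.7 to 475 with vehicle, with 4 of 8 higher, 0 lower and none at 0. In DMM their sums were 19.3 to 157 CPM with AP20187 and 17.4 to 2061 with vehicle, and 0 of the 8 were higher and 2 lower. The part of these markers in the naive results was not tested.

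**Figure D1:**
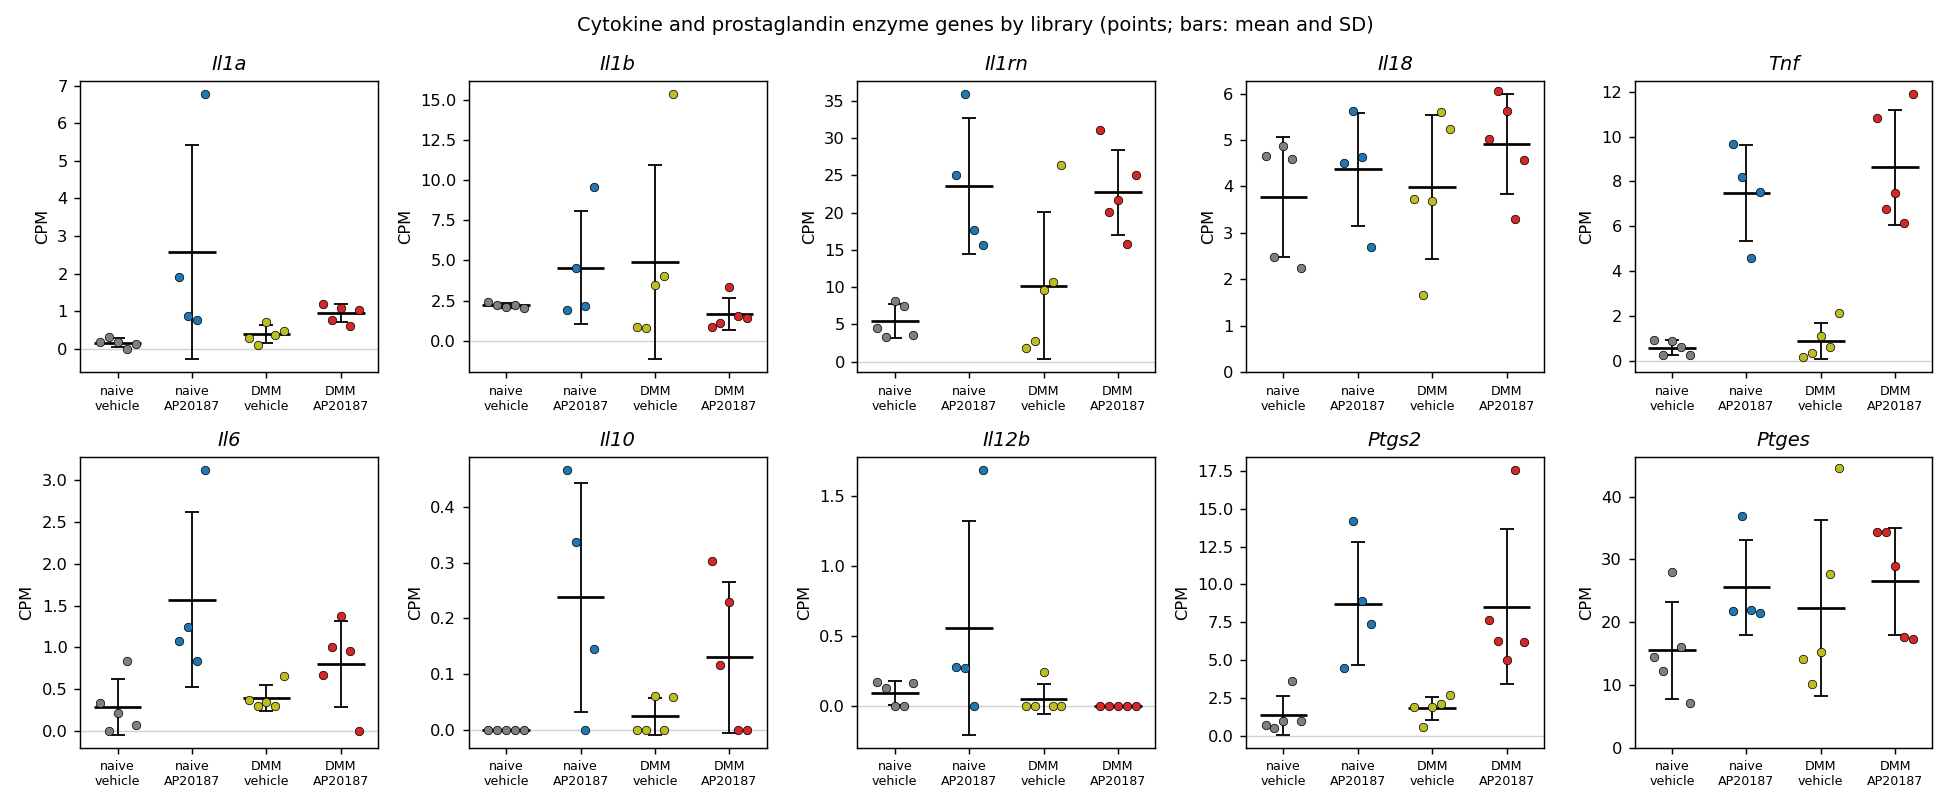
Level in CPM (vertical axis, 1 panel per gene) in each library of the 4 groups (horizontal axis); points are libraries, bars the mean and the SD. Tnf and Ptgs2 of all AP20187 libraries lie above those of the vehicle libraries of the same surgery group, while Il1b of DMM vehicle library 64 stands at 15.4 CPM.

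Tnf (chromosome 17, 35418357 to 35420983 on the minus strand; positions of genes are those of the table, on GRCm39 per the submitters' processing notes) encodes tumour necrosis factor. Its 5 DMM libraries with AP20187 held 10.8, 6.77, 7.48, 6.12 and 11.9 CPM (numbers 58 to 62), against 0.185, 0.328, 1.12, 0.619 and 2.15 with vehicle (32, 33, 34, 63 and 64). The lowest AP20187 library was above the highest vehicle library, number 64. The means were 8.62 ± 2.58 (SD, n = 5) and 0.880 ± 0.794 CPM (n = 5), a 9.77-fold difference (log2 fold change 3.29, SE 0.55, edgeR adjusted p = 0.000753). In naive ganglia Tnf was at 9.68, 8.17, 4.59 and 7.55 CPM with AP20187 (1, 3, 4 and 5) and at 0.912, 0.249, 0.893, 0.629 and 0.254 with vehicle (1 to 5). Here too the groups did not overlap, and the fold was 12.7 (log2 fold change 3.67, SE 0.57, adjusted p = 0.000906). Without vehicle library 64 the log2 fold change in DMM was 3.93 (adjusted p = 9.49e-05). Tnf kept its call in both comparisons in every alternative run here. The 2 effects were not shown to differ (difference -0.38, 95% interval -1.93 to 1.16, adjusted p = 0.958).

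Il1a (chromosome 2, 129141530 to 129151892, minus strand) encodes the interleukin-1 that is stored in cells and released on damage. In naive ganglia it was at 1.90, 0.861, 0.773 and 6.77 CPM with AP20187 and at 0.173, 0.326, 0.187, 0 and 0.134 with vehicle. All AP20187 libraries were higher, and number 5, with 418 counts, stood far above the other 3, which held 46 to 110. The log2 fold change was 3.96 (SE 0.79, edgeR adjusted p = 0.00424) and 2.80 (adjusted p = 0.0175) without library 5. In DMM, Il1a was at 1.18, 0.775, 1.10, 0.614 and 1.04 CPM with AP20187 and at 0.293, 0.104, 0.726, 0.378 and 0.471 with vehicle. These groups overlapped, and the log2 fold change of 1.25 (SE 0.70, adjusted p = 0.203) did not pass. An annotated gene on the opposite strand, Gm14023, overlaps Il1a and held 7 to 73 counts a library, against 0 to 418 for Il1a; whether counting used strand is not given in the sources used here, so the values of Il1a are uncertain to that extent.

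Il1b (chromosome 2, 129206490 to 129213059, minus strand) encodes the secreted, caspase-processed agonist. Naive vehicle libraries were tightly grouped at 2.42, 2.19, 2.12, 2.24 and 2.04 CPM, while naive AP20187 libraries held 1.92, 4.56, 2.17 and 9.57. The latter spread from below the vehicle range to well above it, and the difference did not pass (log2 fold change 1.05, SE 0.68, adjusted p = 0.314); without AP20187 library 5 it was 0.39 (adjusted p = 0.725). In DMM the order was the other way: 0.818, 1.07, 3.37, 1.56 and 1.39 CPM with AP20187 and 0.863, 0.776, 3.46, 4.02 and 15.4 with vehicle. The groups overlapped, and the log2 fold change of -1.58 (SE 0.66, adjusted p = 0.0889) did not pass in edgeR; DESeq2 put it at -1.55 (adjusted p = 0.0493), just inside the threshold. Vehicle library 64 had 1045 counts, and without it the log2 fold change was -0.47 (adjusted p = 0.547). An antisense gene, Il1bos, overlaps Il1b and held 0 to 51 counts.

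Il1rn (chromosome 2, 24226865 to 24241506, plus strand) encodes the receptor antagonist. Naive libraries held 25.0, 35.9, 17.7 and 15.6 CPM with AP20187 and 4.55, 3.33, 8.14, 7.53 and 3.53 with vehicle. The groups did not overlap, and Il1rn rose 4.35-fold (log2 fold change 2.12, SE 0.55, edgeR adjusted p = 0.0196). The call was lost without AP20187 library 3 (adjusted p = 0.0741) or vehicle library 1 (0.0518) or 2 (0.0560). In DMM it was at 31.0, 20.1, 21.6, 15.7 and 25.1 CPM with AP20187 and at 1.85, 2.72, 9.56, 10.6 and 26.3 with vehicle. Only vehicle library 64 reached into the AP20187 range, and the log2 fold change of 1.15 (SE 0.51, adjusted p = 0.109) passed when it was left out (1.87, adjusted p = 0.0057). It also passed in limma on log2(FPKM + 1) (adjusted p = 0.0293) and log2(FPKM + 0.1) (0.0313). Cell markers of library 64 stood apart as well: its summed level of 13 neutrophil markers was 8737 CPM against 453 to 3020 in the other 4 vehicle libraries, and that of 13 sensory neuron markers was 3044 against 4952 to 6398. None of either list's markers was at 0 in these libraries, and the part of these markers in the result was not tested.

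Il18 (chromosome 9, 50466127 to 50493140, plus strand), an inflammasome-processed cytokine of the interleukin-1 family, was at 3.29 to 6.05 CPM in DMM with AP20187 and 1.67 to 5.60 with vehicle. In naive ganglia the ranges were 2.70 to 5.62 with AP20187 and 2.24 to 4.87 with vehicle. The groups overlapped in both, and the log2 fold changes were 0.30 (95% interval -0.35 to 0.96, edgeR adjusted p = 0.528) and 0.21 (-0.48 to 0.91, adjusted p = 0.690). Rises of up to 0.96 and 0.91 log2 units were within these intervals. Il18 overlaps Bco2 (28 to 166 counts) and Tex12 (0 to 20 counts) on the opposite strand.

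Il6 (chromosome 5, 30218112 to 30224979, plus strand), which encodes interleukin-6, was low throughout. Naive libraries were at 1.07, 1.25, 0.840 and 3.13 CPM with AP20187 and at 0.330, 0, 0.213, 0.839 and 0.0668 with vehicle. The groups did not overlap, by a margin of 0.840 against 0.839 CPM. The log2 fold change was 2.44 (SE 0.97, edgeR adjusted p = 0.109) and did not pass; with DESeq2 it did (2.46, adjusted p = 0.0433). It also passed in limma on log2(FPKM + 1) (adjusted p = 0.0339) and log2(FPKM + 0.1) (0.0352), and in edgeR without vehicle library 4 (3.35, adjusted p = 0.0430). In DMM, 4 of the AP20187 libraries held 0.667 to 1.37 CPM and number 62 held none, against 0.298 to 0.662 with vehicle (log2 fold change 1.01, adjusted p = 0.455).

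Il10 (chromosome 1, 130947582 to 130952711, plus strand), the gene of the anti-inflammatory interleukin-10, had 0 counts in all 5 naive vehicle libraries. With AP20187 the naive libraries held 27, 20, 0 and 9 counts, a mean of 0.238 ± 0.206 CPM (SD, n = 4), at least 5.34-fold higher than with vehicle when the latter is set to the floor of 3 counts per library. The adjusted p in edgeR was 0.0373. The call was lost without AP20187 library 1 (adjusted p = 0.0911) or 3 (0.0942) and without any single vehicle library (0.0508 to 0.0733), without the filter on low counts (0.0594) and in limma on log2(FPKM + 1) (0.0635) or log2(FPKM + 0.1) (0.0533). In DMM, Il10 had 20, 8, 15, 0 and 0 counts with AP20187 and 0, 0, 4, 0 and 4 with vehicle, which did not pass (adjusted p = 0.283). No more than 27 counts stood behind any of these values.

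Il12b (chromosome 11, 44290890 to 44304860, plus strand), which encodes the subunit shared by interleukin-12 and interleukin-23, had 0 counts in all 5 DMM libraries with AP20187. DMM vehicle libraries had 0 counts except number 34, which had 16. Naive libraries with AP20187 held 16, 16, 0 and 104 counts, the last in library 5, and those with vehicle 11, 8, 0, 0 and 12. Neither comparison of AP20187 with vehicle passed (edgeR adjusted p = 0.131 in DMM and 0.325 in naive ganglia).

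Naive AP20187 library 5 held the highest Il1a, Il1b, Il6 and Il12b of its group and the lowest Il1rn and Il18. Its neutrophil marker sum was 8198 CPM, the lowest of the 4 naive AP20187 libraries, whose highest was 28214. The part of these markers in the difference was not tested.

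Ptgs2 (chromosome 1, 149975782 to 149983978, plus strand) rose with AP20187 in both surgery groups. The DMM libraries held 7.64, 6.24, 5.02, 17.6 and 6.21 CPM with AP20187 and 1.87, 0.597, 1.91, 2.10 and 2.66 with vehicle. The groups did not overlap, and library 61 stood far above the other 4 AP20187 libraries. The means were 8.54 ± 5.13 (SD, n = 5) and 1.83 ± 0.758 CPM (n = 5), a 4.67-fold difference (log2 fold change 2.22, SE 0.53, edgeR adjusted p = 0.00706), and the log2 fold change was 1.78 (adjusted p = 0.0155) without library 61. Naive libraries held 4.50, 14.2, 8.89 and 7.39 CPM with AP20187 and 0.739, 0.482, 0.960, 3.61 and 0.989 with vehicle. Vehicle library 4 was the highest of its group but still below every AP20187 library, and the fold was 6.44 (log2 fold change 2.69, SE 0.55, adjusted p = 0.00543). Without vehicle library 4 the log2 fold change was 3.46 (adjusted p = 0.00069). The effects were not shown to differ between DMM and naive ganglia (difference -0.46, 95% interval -2.01 to 1.08, adjusted p = 0.948). With 1 library left out the difference ran from -1.23 to -0.13.

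Ptges (chromosome 2, 30779483 to 30793309, minus strand), the next enzyme of the route, held 17.3 to 34.4 CPM in DMM with AP20187 and 10.1 to 44.5 with vehicle, the highest again in library 64. Naive libraries held 21.4 to 36.9 CPM with AP20187 and 7.05 to 27.9 with vehicle. The groups overlapped in both, and the log2 fold changes were 0.25 (95% interval -0.55 to 1.05, edgeR adjusted p = 0.688) and 0.72 (-0.13 to 1.56, adjusted p = 0.246). The 2 enzymes of the route thus differed in their calls; whether their fold changes differ from each other was not tested.

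**Figure D2:**
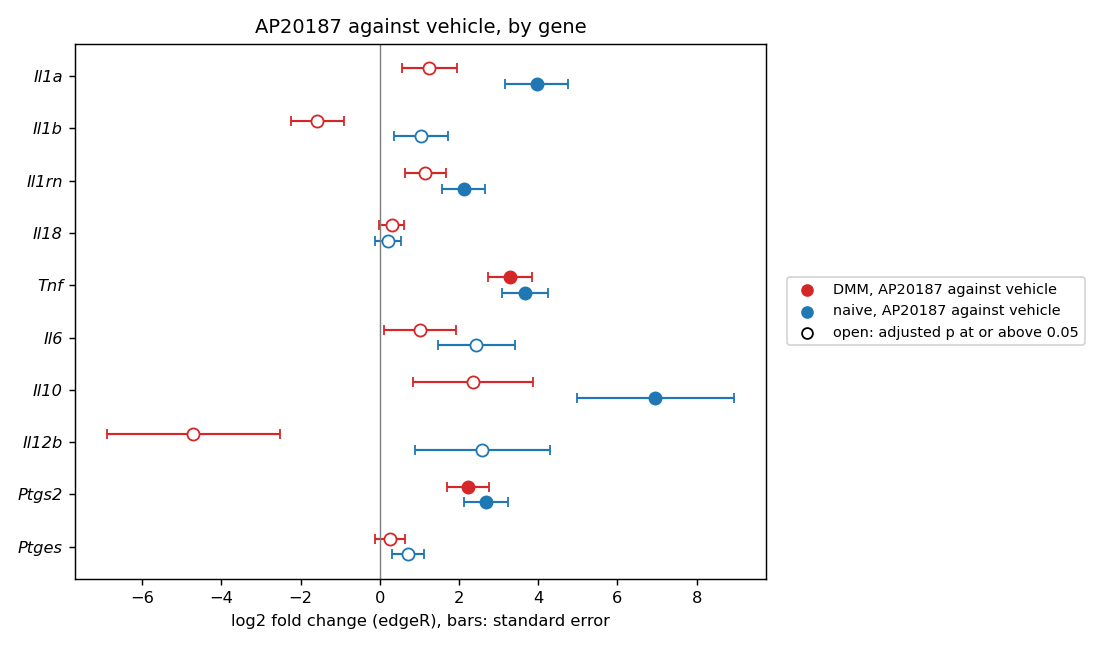
Log2 fold change of AP20187 against vehicle (horizontal axis, edgeR; bars are standard errors) for each gene in DMM and naive ganglia; filled points passed at an adjusted p under 0.05. Tnf and Ptgs2 are filled in both, at 3.29 and 2.22 in DMM and 3.67 and 2.69 in naive ganglia, and the fitted values of Il10 and Il12b rest on few counts.

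The DMM vehicle libraries carry numbers in 2 separate ranges, 32 to 34 and 63 to 64, and the AP20187 libraries only 58 to 62. Against libraries 32 to 34 alone, 4 of the genes passed in DMM: Il1rn, Tnf, Ptgs2 and Ptges, all higher (log2 fold change of Il1rn 2.27 and of Ptges 1.01), where 36.3% of all genes passed, so that the count was near the background. Against 63 and 64 alone, 2 passed: Tnf, higher, and Il1b, lower (log2 fold change -2.57, adjusted p = 0.0239); Ptgs2 was at 1.85 (adjusted p = 0.155) with only 2 vehicle libraries. That fit called 4.73% of all genes. The sign of Il18 (-0.11) and Ptges (-0.42) turned in that fit. Tnf was thus the 1 gene of the 10 called in DMM against either set of vehicle libraries. What the numbers stand for is not given in the sources used here.

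Between genes, levels were compared in the authors' FPKM, which takes account of gene length. Ptges had the highest mean FPKM of the 10 genes in all 4 groups (3.89 ± 2.00 in naive vehicle, 6.65 ± 2.43 in DMM with AP20187). In naive vehicle, though, its median of 3.63 FPKM was below the 4.35 of Il18. Library 3 held the highest Ptges of that group, 7.13 FPKM. Tnf was the fifth highest in both vehicle groups, at 0.350 ± 0.199 FPKM in naive (SD, n = 5) and 0.549 ± 0.518 in DMM (n = 5). In both AP20187 groups it was second, at 3.92 ± 1.03 (n = 4) and 5.09 ± 1.41 FPKM (n = 5). Its neighbours in that order, Ptges above it and Il18 (DMM) or Il1rn (naive) below it, had ranges that overlapped with its own. Il6 did not exceed 1.19 FPKM in any library, Il12b 0.791 and Il10 0.290.

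The ratio of 2 FPKM values within a library does not depend on its depth. The ratio of Il1rn, the antagonist, to Il1b was 13.4, 6.57, 2.21, 3.49 and 6.35 in DMM with AP20187 and 0.742, 1.2, 0.953, 0.915 and 0.589 with vehicle. The lowest AP20187 ratio, in library 60, was above the highest vehicle ratio, in library 33. In naive ganglia it was 4.50, 2.71, 2.81 and 0.561 with AP20187, library 5 being the lowest, and 0.524 to 1.32 with vehicle. The ratio of Tnf to Il1b was 2.59 to 15.8 in DMM with AP20187 and 0.162 to 0.485 with vehicle, and 0.917 to 5.89 against 0.132 to 0.485 in naive ganglia. The ratio of Ptges to Ptgs2 went the other way, at 1.17 to 6.70 against 8.81 to 20.02 in DMM and 2.88 to 5.64 against 5.17 to 34.1 in naive ganglia. Ptgs2 stayed below Ptgs1, the constitutive cyclooxygenase, in every library, at 0.0466 to 0.440 of its FPKM. These ratios are descriptions and were not tested.

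**Figure D3:**
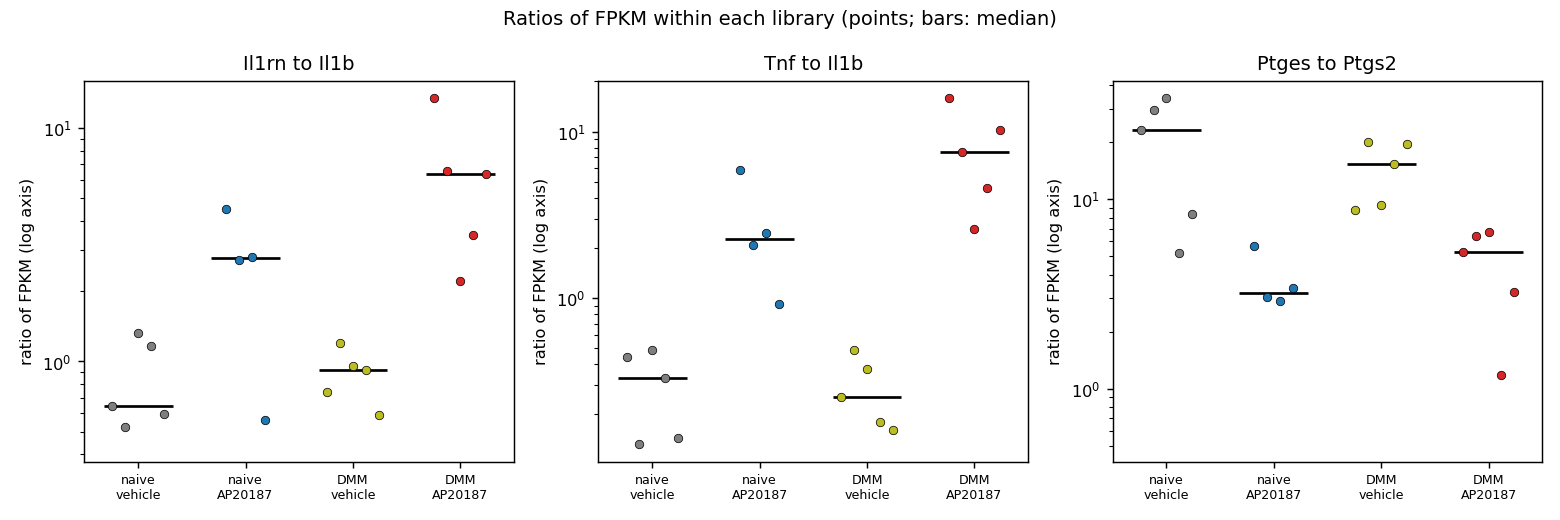
Ratio of FPKM values within each library (vertical axis, log scale) of Il1rn to Il1b, Tnf to Il1b and Ptges to Ptgs2 in the 4 groups; points are libraries and bars the group median. The median of Il1rn to Il1b was 6.35 in DMM with AP20187 and 0.915 with vehicle, and that of Tnf to Il1b 7.49 and 0.253.

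DMM against naive mice gave no call among the 10 genes under either injection. With vehicle, 0 of 10 passed in edgeR, where 0% of all genes did; 0 had an unadjusted p under 0.05, a level that 1.66% of all genes reached, and 0 passed in DESeq2 or limma. The log2 fold changes ran from -0.89 (Il12b) to 3.75 (Il10, a fitted value against a group at 0). Tnf was at 0.58 (95% interval -0.51 to 1.67), Il1b at 1.15 (-0.22 to 2.52) and Ptgs2 at 0.43 (-0.64 to 1.5), so that rises of over 2-fold were within each of these intervals. The value of Il1b rested on library 64, without which it was 0.049. Single libraries stood out for Tnf and Ptgs2 as well. Tnf held 2.15 CPM in DMM vehicle library 64, while the vehicle group medians were 0.619 in DMM and 0.629 in naive ganglia. Ptgs2 held 3.61 CPM in naive vehicle library 4, with medians of 1.91 in DMM and 0.960 in naive ganglia. Fits of this comparison without these libraries are not given here for Tnf and Ptgs2. With vehicle libraries 63 and 64 as the only DMM samples, 1 gene passed, Il1rn (log2 fold change 1.82, adjusted p = 0.0485), in a fit that called 2.21% of all genes, while libraries 32 to 34 gave -0.20 for it. With AP20187, 0 of 10 passed in edgeR, where 0.702% of all genes did; 2 genes, Il1b and Il12b, had an unadjusted p under 0.05, as did 16.7% of all genes. DESeq2 called Il12b there (0 counts in DMM, 0 to 104 in naive mice; adjusted p = 0.0447), where it called 4.87% of all genes. Muscle markers differed between these AP20187 groups, with a summed level of 8 genes of 19.3 to 157 CPM in DMM and 1726 to 2679 in naive ganglia; none was at 0, and their part was not tested.

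The test of the difference between the AP20187 effects in DMM and in naive ganglia called none of the 10 genes in edgeR, where 0.114% of all genes passed. DESeq2, which called 0.983% of all genes, and limma called 0 of the 10 as well. Il1a (difference -2.71), Il1b (-2.62) and Il12b (-7.29) had an unadjusted p under 0.05, as did 7.67% of all genes, and their adjusted p values were 0.499, 0.473 and 0.524. Single libraries moved these values: the difference of Il1a was -1.54 without naive AP20187 library 5. That of Il1b was -1.52 without vehicle library 64 in DMM and -1.96 without naive AP20187 library 5. For Il12b it was -2.58 without vehicle library 34 in DMM, which leaves no DMM library with a count, and -5.65 without naive AP20187 library 5. So although Il1a, Il1rn and Il10 passed in naive ganglia alone, no difference from DMM was shown for them. The differences of Il1rn and Il10 were -0.97 (95% interval -2.52 to 0.58) and -4.61 (-9.39 to 0.17, from few counts, adjusted p = 0.672). Without vehicle library 64 the Il1rn effect in DMM was 1.87, beside 2.12 in naive ganglia with all libraries.

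Genes of the surrounding pathways were taken as 8 lists of 95 genes, of which 91 were tested. In DMM 39 were higher and 6 lower with AP20187 (49.5% called, against 23.8% of all genes); in naive ganglia 33 were higher and 0 lower (36.3% against 11.2%). Their median log2 fold changes were 0.84 and 0.78. No gene of these lists passed in the other 3 comparisons.

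Of the receptors and processing enzymes of interleukin-1 and interleukin-18, 14 of 19 were higher in DMM and 13 in naive ganglia, with 0 lower. Of all genes, 11.3% were higher in DMM and 8.61% in naive ganglia. The list's median log2 fold change was 1.74 in both. Il1r2, a decoy receptor that binds interleukin-1 without signalling, rose from 6.27 ± 6.15 CPM (SD, n = 5) to 149 ± 68.8 (n = 5) in DMM (log2 fold change 4.57, edgeR adjusted p = 6.29e-05) and from 4.23 ± 1.53 (n = 5) to 94.3 ± 36.1 (n = 4) in naive ganglia (4.48, adjusted p = 0.00013). Casp4, an inflammatory caspase, rose by 2.78 and 3.04, and Il18r1, a chain of the interleukin-18 receptor, by 2.66 in DMM. Il36g, an interleukin-1 family cytokine, rose by 3.08 in naive ganglia. All these calls held without any single library.

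Of 11 genes of TNF shedding and receptors, 7 were higher in DMM and 5 in naive ganglia. The shares of all genes that were higher, here and for the NF-kappaB list below, were 11.3% and 8.61%. Ripk1, a kinase of the receptor complex, rose by 1.65 and 1.56 log2 units and Birc3, a ubiquitin ligase of that complex, by 1.62 and 1.63. Rhbdf2, which brings the shedding protease to the cell surface, rose by 1.57 in DMM, and Tnfrsf1a, the main signalling receptor, by 1.54 in naive ganglia. Of 12 NF-kappaB subunits and inhibitors, 6 and 4 were higher: the inhibitor-like Bcl3 rose by 2.82 in DMM and 2.80 in naive ganglia, Nfkbiz by 1.73 and 1.42, and the inhibitor Nfkbia by 1.46 in DMM. The subunit Relb rose by 1.09 in naive ganglia, a call lost without AP20187 library 1 or 3 or vehicle library 2 (adjusted p 0.0520 to 0.0730) and in limma on log2(FPKM + 1) (0.0615). Against vehicle libraries 63 and 64 alone, the DMM calls of Ripk1, Birc3, Rhbdf2 and Nfkbia were lost. Their log2 fold changes were then 1.13, 0.99, 0.95 and 0.94 (edgeR adjusted p 0.0966 to 0.162).

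In the interleukin-6 family 2 of 12 genes were higher and 2 lower in DMM, and 2 higher in naive ganglia, near the shares of all genes (11.3% higher in DMM and 8.61% in naive ganglia); the list's medians were -0.09 and 0.34. Socs3, a feedback inhibitor of the pathway, rose by 2.48 in DMM and 2.17 in naive ganglia, and the cytokine Osm by 2.72 in DMM. Osm also passed in naive ganglia (2.29), but not without AP20187 library 1 or 3 or vehicle library 1, 2, 4 or 5 (adjusted p 0.0591 to 0.110), without the filter on low counts (0.0582) or in limma on log2(FPKM + 0.1) (0.0507). The receptor Lifr fell by 1.16 on the log2 scale in DMM, a call lost without AP20187 library 58, 59, 60 or 62 or vehicle library 32, 33 or 34 (adjusted p 0.0786 to 0.130), without the filter on low counts (0.0729) and with only the 2 groups compared (0.0757). In the interleukin-10 and interleukin-12 family 2 of 9 tested genes were higher in DMM and 1 in naive ganglia, shares near those of all genes called (23.8% and 11.2%). Il27 rose by 4.24 in DMM, and Ebi3, which pairs with it to form interleukin-27, by 2.47 in DMM and 2.71 in naive ganglia.

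In prostanoid synthesis and breakdown 4 of 13 genes were higher and 2 lower in DMM, and 3 were higher in naive ganglia, beside 23.8% and 11.2% of all genes called; the list's medians were 0.39 and 0.43. Ptgs1 rose from 10.6 ± 5.93 to 47.5 ± 15.1 CPM (SD, n = 5 each) in DMM (log2 fold change 2.16, adjusted p = 0.00448), and Pla2g4a, the phospholipase that releases arachidonic acid, by 1.81 in DMM. In naive ganglia Pla2g4a (1.5), the prostaglandin D synthase Hpgds (1.66) and the prostaglandin transporter Slco2a1 (1.61) passed. Each of these 3 calls was lost without AP20187 library 3 or vehicle library 1 or 2, those of Pla2g4a and Hpgds also without AP20187 library 1, and those of Hpgds and Slco2a1 also without vehicle library 5 (adjusted p 0.0610 to 0.144 over the 3 genes). The call of Hpgds was also lost without TMM (0.0583) or the filter on low counts (0.0614), and that of Slco2a1 with only the 2 groups compared (0.0652); with these losses the naive count of 3 is not set apart from the background. Without vehicle library 4 the log2 fold change of Slco2a1 was 2.34 (adjusted p = 0.000771). The secreted phospholipase Pla2g2d fell by 1.62 on the log2 scale in DMM, which was lost without AP20187 library 59, 60 or 62 or vehicle library 64 (adjusted p 0.0574 to 0.0648).

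Of 8 prostanoid receptors tested, 0 were higher and 2 lower in DMM, and 0 passed in naive ganglia (median log2 fold change -0.60 and -0.40). The count in DMM was near the 23.8% of all genes called. Ptgdr, a prostaglandin D2 receptor, fell from 43.1 ± 15.6 to 16.5 ± 8.85 CPM (SD, n = 5 each; log2 fold change -1.38, adjusted p = 0.0137). Ptger3, a prostaglandin E2 receptor, fell by 1.52 on the log2 scale, which was lost without AP20187 library 58, 59, 60 or 62 or vehicle library 32, 33 or 34 (adjusted p 0.0676 to 0.112), without the filter on low counts (0.0590), with only the 2 groups compared (0.0571) and in limma on log2(FPKM + 0.1) (0.0579). Of 13 sensory neuron markers, 8 were lower in DMM and 0 in naive ganglia, where 2828 and 586 of the 22778 genes tested were lower. The summed level of the markers in DMM was 1205 to 3341 CPM with AP20187 against 3044 to 6398 with vehicle. In naive ganglia the sums were 1193 to 3841 against 4579 to 6557 and did not overlap, and the median log2 fold change of the 13 markers was -0.92 (-1.53 in DMM). The part of these markers was not tested. The leukotriene list had 4 of 7 genes higher in DMM and 5 in naive ganglia, beside 11.3% and 8.61% of all genes. Its medians were 2.19 and 2.17. Alox5ap rose by 3.08 and 3.44 log2 units, Alox5, the enzyme it serves, by 2.85 and 2.98, and the leukotriene B4 receptor Ltb4r1 by 2.89 and 2.98. With vehicle libraries 63 and 64 alone, 12 of the 22 genes named here as called in DMM lost the call, in the fit that called 4.73% of all genes. Ptger3 was then at -0.09 (adjusted p = 0.965) and Lifr at -0.16 (0.911), while Il27 was at 3.29 (0.164) and Osm at 1.80 (0.0719); Ripk1, Birc3, Rhbdf2, Ebi3, Nfkbia, Ptgs1, Pla2g4a and Ptgdr lost it as well. Il1r2, Casp4, Il18r1, Socs3, Bcl3, Nfkbiz, Pla2g2d, Alox5, Alox5ap and Ltb4r1 kept it. Pla2g2d lost it against libraries 32 to 34 alone (-0.99, adjusted p = 0.160). Without vehicle library 64 the log2 fold changes in DMM were 5.36 for Il1r2, 5.31 for Il27, 3.24 for Ebi3, 3.38 for Osm, 3.86 for Alox5ap, 3.73 for Ltb4r1 and 3.48 for Alox5, with adjusted p from 4.06e-06 to 0.00207.

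**Figure D4:**
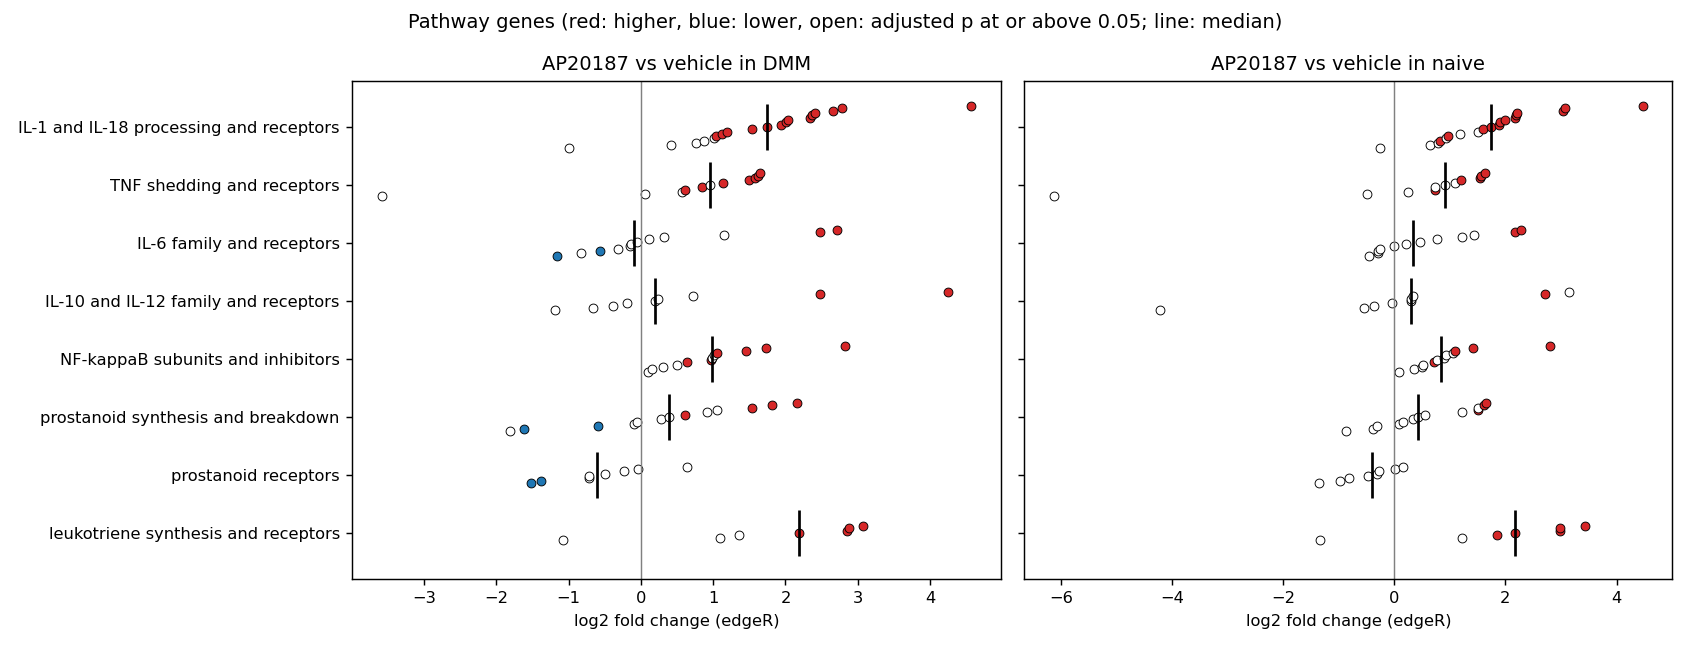
Log2 fold change (horizontal axis, edgeR) of each tested gene of the 8 pathway lists (rows) for AP20187 against vehicle in DMM (left) and naive ganglia (right); red points passed higher, blue points passed lower, open points did not pass, and lines are list medians. The interleukin-1 and interleukin-18 list has its median at 1.74 in both, and the prostanoid receptors at -0.60 and -0.40.

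The genes whose pattern over the 19 libraries lay nearest were found by the root mean square difference of standardized log2 CPM, for which the median over all genes compared was 1.36 to 1.43. Nearest to Tnf were the complement gene C3 (0.190) and Cldn15 (0.208). Nearest to Il1rn were Laptm5 (0.173) and Selplg (0.174), and nearest to Ptges were Vit (0.201) and Dcn (0.214), the latter an extracellular matrix gene of fibroblasts. Ptgs2 lay nearest to B3gnt3 (0.283) and Tek (0.324), and Il18 to Coa6 (0.448) and Ang (0.460). For the genes of lower counts the nearest were Gemin6 (0.395) and Cep57l1 (0.524) for Il1a, Lrrc75a (0.579) and Sh3d21 (0.640) for Il6, Tmem106a (0.592) and Npl (0.621) for Il10, and Babam2 (0.680) and Aven (0.731) for Il12b. For Il1b the nearest were Fam234a (0.674) and Snx22 (0.689). Within the 10 genes, Il1rn and Tnf were the closest pair (0.388), while Il1b lay 1.12 from Il1rn and 1.28 from Tnf.

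Markers of several cell types moved with the called genes. Of all genes tested, 23.8% were called in DMM (11.3% higher) and 11.2% in naive ganglia (8.61% higher). Lower were 2828 of the 22778 genes in DMM and 586 in naive ganglia. Near these shares were the DMM counts of macrophage and of mast cell and basophil markers. The counts of T and NK cell markers and the naive count of satellite glia markers were near them as well. The summed level of 13 neutrophil markers was 17010 to 29068 CPM in DMM with AP20187 against 453 to 8737 with vehicle, with 8 of 13 higher and 0 lower. In naive ganglia it was 8198 to 28214 against 964 to 2582, with 9 of 13 higher. S100a8, a calcium-binding protein abundant in neutrophils, was at 1131 ± 255 CPM (SD, n = 5) in DMM with AP20187 and 139 ± 166 (n = 5) with vehicle. All 5 granulocyte precursor markers were higher in both, with Mpo, myeloperoxidase, at 887 ± 327 against 78.6 ± 83.5 CPM in DMM (n = 5 each). The 13 macrophage markers summed to 290 to 1105 CPM in DMM with AP20187 and 194 to 688 with vehicle, with 2 higher and 0 lower, and to 521 to 870 against 111 to 548 in naive ganglia, with 5 higher and 0 lower. Cd68, a lysosomal protein of macrophages, was at 38.4 ± 12.1 CPM (n = 4) against 9.77 ± 4.64 (n = 5) in naive ganglia and passed (adjusted p = 0.0139). It did not pass in DMM (adjusted p = 0.151), nor did the macrophage surface protein Adgre1 in DMM (0.242) or naive ganglia (0.149). Monocyte markers (7 genes) summed to 3366 to 8816 against 213 to 1760 CPM in DMM, with 4 higher and 1 lower, and to 1711 to 5059 against 292 to 1164 in naive ganglia, with 3 higher and 1 lower. Endothelial markers (6 genes) summed to 158 to 294 against 67.1 to 146 CPM in DMM, with 3 higher, and to 210 to 477 against 63.9 to 306 in naive ganglia, with 2 higher. No marker of these 5 lists was at 0 in any library. Of 10 markers of early B lineage cells, 8 were lower in DMM (46.1 to 116 against 168 to 213 CPM) and 7 in naive ganglia (70.5 to 151 against 169 to 215), and up to 4 of the 10 were at 0 in an AP20187 library and up to 3 in a DMM vehicle library. Of 9 erythroid markers, 6 were lower in DMM (1302 to 5239 against 1600 to 26744 CPM) and 0 in naive ganglia (1949 to 4294 against 3342 to 13338). Of 8 mast cell and basophil markers, 1 was higher in DMM (67.6 to 255 against 25.6 to 213 CPM) and 4 in naive ganglia (86.1 to 198 against 20.2 to 72.7). Of 9 markers of the central nervous system, 0 passed in DMM (42.9 to 60.1 against 47.5 to 106 CPM) and 4 were lower in naive ganglia (29.6 to 72.6 against 61.6 to 65.7), where up to 3 were at 0 in an AP20187 library. Of 8 satellite glia markers, 3 were lower in DMM (1845 to 3971 against 2268 to 5185 CPM) and 1 in naive ganglia (2946 to 3878 against 2234 to 3998). Of 10 markers of T and NK cells 1 was higher in each, Nkg7 (23.2 to 44.8 against 5.41 to 31.3 CPM summed over the 10 in DMM, 11.4 to 35.5 against 4.26 to 17.8 in naive ganglia), and of 6 fibroblast markers 0 passed in either. Isl1, a transcription factor of sensory neurons, held 43.4 ± 16.9 CPM in DMM with AP20187 against 78.1 ± 22.6 in its vehicle group (n = 5 each, adjusted p = 0.0908). The part of all these markers in the results for Tnf, Ptgs2, Il1a, Il1rn and Il10 was not tested.

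**Figure D5:**
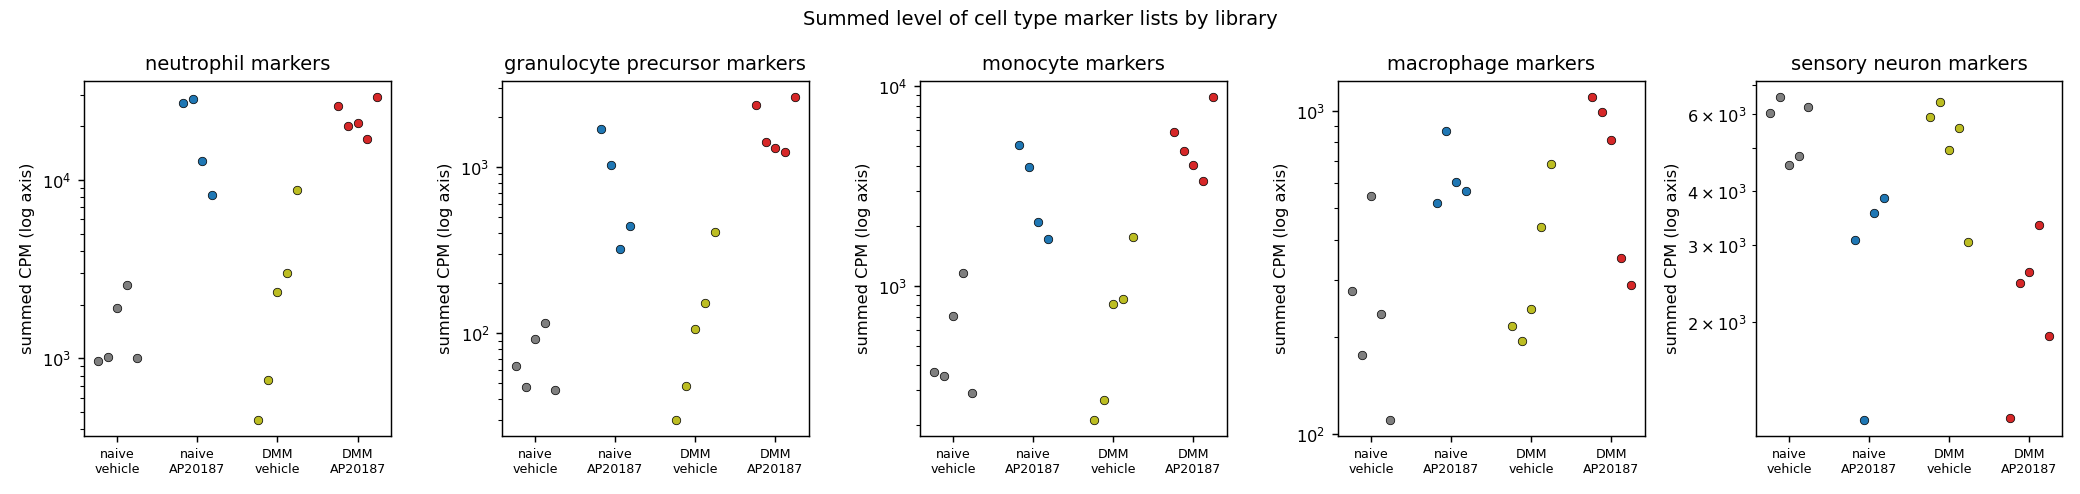
Summed CPM (vertical axis, log scale) of 5 marker lists in each library (points) of the 4 groups. Neutrophil and granulocyte precursor sums of all AP20187 libraries in DMM lie above those of the DMM vehicle libraries, whose highest neutrophil sum, 8737 CPM, is that of library 64.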

How the data were processed

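Poly(A) RNA of 19 samples in 4 groups was sequenced from stranded libraries, per the labels' protocols. Reads were handled with cutadapt, HISAT2 and StringTie on build GRCm39, per the submitters' processing notes; versions, the counting step and its strand setting are not given in the sources used here. The authors deposited raw counts per gene and FPKM, in which fragments are divided by gene length and by library size, in 1 table of 36682 named genes; for all 10 genes described here its counts equal those of the deposited count matrix of 56691 entries, of which 6448 carried no name and were left out.

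Counts were tested in R 4.3.3 with edgeR 4.0.16 (TMM scaling, filterByExpr with a minimum count of 10, quasi-likelihood F test, all 19 libraries in 1 model without covariates), with Benjamini-Hochberg adjustment over the 22778 genes that passed, at a threshold of 0.05. FPKM were used for levels between genes, for ratios and, as log2 values with a pseudocount of 1 or 0.1, in limma 3.58.1; DESeq2 1.42.0 was a further alternative. The procedure was tested on simulated data. Intervals are 95%, from the t distribution with the degrees of freedom of each gene's quasi-likelihood test, and the detection floor of 3 counts covers counting error only.

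No 2 libraries agreed within sampling noise (lowest chi-square per gene 22.0). All 10 genes are named; of each pathway list, up to 3 genes per comparison of AP20187 with vehicle that passed, by the size of the change and with 1 CPM or more as the mean of some group; the 2 nearest genes of each; and the markers Csf1r, Adgre1, Cd68, S100a8, Mpo and Isl1. Genes and lists were chosen with earlier results of these data known. The comparisons share control groups. Results of all 8 pathway and 14 marker lists are given in the text.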

Additional observations from a re-analysis of the deposited data

Results flagged for a closer look

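In 38 sets of 4 or 5 libraries of 1 gene and group, 8 held a library whose distance to its nearest neighbour took up an unusually large part of the group's range. The limit used is one that chance passes in about 1 in 20 sets of normally distributed values; how often chance passes it in these skewed values with zeros was not measured. Among DMM vehicle libraries, number 64 stood apart for Il1b at 15.4 CPM and for Il6 at 0.662 CPM, and number 34 for Il12b at 0.242 CPM, where the other 4 had no counts. Among DMM AP20187 libraries, number 60 stood apart for Il1b at 3.37 CPM and number 61 for Ptgs2 at 17.6 CPM. Among naive AP20187 libraries, number 5 stood apart for Il12b at 1.68 CPM and number 3 for Ptges at 36.9 CPM. Naive vehicle library 4 stood apart for Ptgs2 at 3.61 CPM, the highest value of that gene in either vehicle group.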

How the results depend on the processing

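Over 72 results for single genes, 1335 alternatives left 1236 on the same side of the threshold with the same sign; 78 lost the call, 13 gained it and 8 changed sign, and 42 results kept sign and call in every one. The number of the 10 genes called in DMM was 2, and it ranged from 2 to 3 with 1 library left out (3 without vehicle library 64). It was 4 against vehicle libraries 32 to 34 alone and 3 in DESeq2. Of all genes these fits called 14.2% to 34%, 36.3% and 30.5%. The number was also 3 in limma with a pseudocount of 1 or 0.1, where 25.3% and 24.9% of all genes were called. In naive ganglia it was 5, ranged from 3 to 5 with 1 library left out (3 without AP20187 library 3 or vehicle library 1 or 2), and was 6 in DESeq2. With 1 library left out, all genes were called at 4.24% to 6.03% where 3 of the 10 passed. They were called at 5.07% to 10.6% where 4 did and at 10.9% to 14.7% where 5 did. DESeq2 called 19.1% of all genes. The naive number was 4 without the filter on low counts (4.89% of all genes) and with only the 2 groups compared (13%). DMM against naive gave 1 with vehicle libraries 63 and 64 alone (2.21% of all genes) and, with AP20187, 1 in DESeq2 (4.87%). With libraries 63 and 64 alone the AP20187 effect in DMM was -0.11 for Il18 and -0.42 for Ptges; with 32 to 34 alone DMM against naive under vehicle was -0.37 for Il1b and -0.20 for Il1rn. The difference of the Tnf effects between DMM and naive was 0.31 with 32 to 34 alone, -0.67 to 0.26 with 1 library left out (0.26 without vehicle library 64), and 0.15 and 0.072 in limma on FPKM with a pseudocount of 1 and 0.1. The cause of these changes was not tested. The naive groups share the numbers 1, 3, 4 and 5. Deviations of same-numbered libraries correlated at 0.02, 0.30, -0.08 and 0.18, and those of differently numbered libraries at -0.26 to 0.20. So few values cannot show whether the numbers pair the samples. With the replicate block 4 of the 10 genes passed (Il1a, Il1rn, Tnf and Ptgs2), with 11.5% of all genes. On log2(FPKM + 0.1) the median of all genes in naive ganglia was -0.20 rather than -0.07. Few counts limit Il10 and Il12b, and Il6 and Il1a in vehicle libraries.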
